A study of Homo sapiens with 5 samples.

Results

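The cells described here were the RNA-rich and the RNA-poor SW480 cells of each plate, as ranked by a spike-in. SW480 is a long-established line of human colorectal cancer cells. They had been transfected with a GFP lentivirus, sorted to high purity and injected into zebrafish, and the tumors were taken at 1 or 4 days post injection (dpi). Single cells were sorted into 384-well plates and measured by SORT-seq, which tags each RNA molecule with a well barcode and a unique molecular identifier (UMI). Each plate was 1 library: libraries 6, 7 and 8 were of 1 dpi (n = 3) and libraries 10 and 11 of 4 dpi (n = 2). Of 1920 wells, 826 held a cell that passed (over 2000 genes and under 25% of UMIs on mitochondrial genes), 533 of them at 1 dpi and 293 at 4 dpi. RNA content was the number of human UMIs divided by the UMIs of the ERCC spike-in in the same well. Within each plate the cells were chosen by this ratio: the top 25% were called RNA-rich and the bottom 25% RNA-poor, which gave 205 cells of each kind, 410 of the 826. The other 416 cells were called middle cells.

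Both groups of cells shared the line, the GFP vector and the host, so that they differed by label in nothing. The tumors were pooled xenografts of 1 line, and the labels do not say whether plates of one time point came from separate pools of animals. P-values of the group comparisons therefore measured how the difference within a plate varied over the plates. For the RNA content by time they measured the spread between plates. Either spread may be technical. All plates used the same 384 well numbers, which cannot be used to tell plates apart. Libraries 6, 7 and 10 were sequenced on one flow cell and libraries 8 and 11 on another.

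ERCC controls are synthetic RNAs that are added to every well in the same amount. The ratio of a cell's own UMIs to those of the spike-in therefore reads the amount of cellular RNA captured, while a sequencing depth that differs between wells cancels out. Total RNA of a cell is known to grow through the cell cycle, as a cell enlarges between one division and the next. Most cellular RNA is cytosolic ribosomal RNA and is hardly seen by this method, which captures polyadenylated transcripts, including those of the mitochondrial genome.

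The values in this paragraph chose the groups and are given as a description, without a test. All values are in the order of libraries 6, 7, 8, 10 and 11. The median RNA content of the RNA-rich cells was 213, 198, 112, 216 and 87.3 human UMIs per ERCC UMI, against 40.6, 49.4, 17.9, 44.7 and 17.3 in the RNA-poor cells. The ratio of the group medians was 5.26, 4.01, 6.23, 4.84 and 5.06. The RNA-rich cells had 52150, 50189, 45729, 46037 and 41718 human UMIs in the median and the RNA-poor cells 9865, 16491, 9440, 10826 and 8096. Most of the contrast therefore lay in the human UMIs, whose medians differed 3.04-fold to 5.29-fold, and a smaller part in the spike-in, whose median in the RNA-rich cells was 0.632 to 0.860 times that in the RNA-poor cells. Some RNA-rich wells were ranked high with few ERCC UMIs. Wells under 50% of their plate's median ERCC count numbered 8, 8, 7, 2 and 2 among the RNA-rich cells and 0, 2, 2, 2 and 0 among the RNA-poor cells.

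The groups were cut from a continuous range and not between separate kinds of cells. At the lower cut, the last RNA-poor cell and the first middle cell had 64.2 and 65.6 human UMIs per ERCC UMI in library 6, 88.1 and 88.9 in library 7, 28.98 and 29.51 in library 8, 60.98 and 62.99 in library 10, and 25.7 and 26.5 in library 11. At the upper cut, the last middle cell and the first RNA-rich cell had 143.5 and 144.3, 158.6 and 159, 82.99 and 83.95, 168.3 and 168.7, and 71.95 and 71.98 in the same order. A cell near a cut could have been placed on either side.

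**Figure D1:**
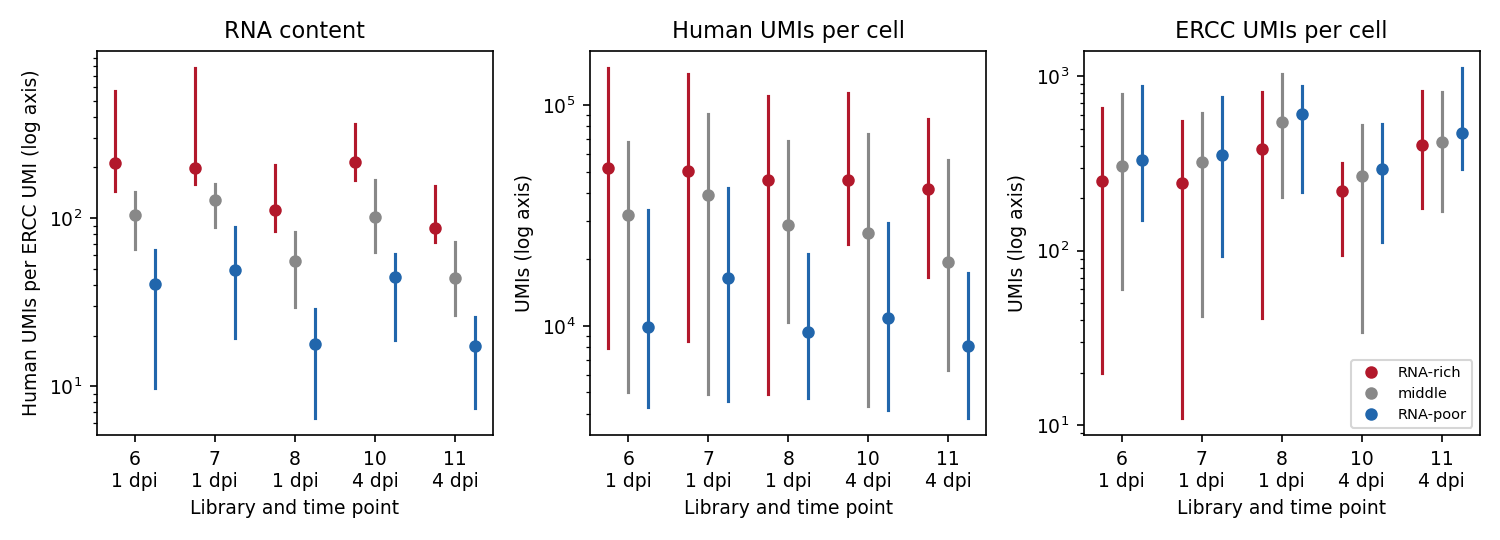
RNA content, human UMIs and ERCC UMIs per cell (log axes) of the RNA-rich, middle and RNA-poor cells of each library. Dots are medians and lines run from the lowest to the highest cell. The medians of RNA content differed 4.01-fold to 6.23-fold between the outer groups, and in human UMIs the ranges of the groups overlapped.

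To compare composition at one depth, each cell was thinned to 4000 UMIs at random and the thinned cells of a group were summed per plate. One RNA-poor cell of library 11 had fewer UMIs and was left out, so that the sums held 57, 35, 40, 33 and 40 RNA-rich cells and 57, 35, 40, 33 and 39 RNA-poor cells. Levels are given as UMIs per 1000000 thinned UMIs (CPM). A difference between groups is thus one of share, not of amount. The libraries held 4487175 to 7632953 human UMIs, and ERCC controls took 1.30% to 3.57% of all UMIs of a library.

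Both groups carried the epithelial markers of the line. The 18 colorectal epithelium markers summed to 4702 to 6469 CPM in the RNA-rich cells and 4470 to 5888 in the RNA-poor cells, with 987 and 1003 UMIs on EPCAM and 1593 and 1510 on KRT8 over all plates. KRT20 and CDX1, which mark differentiated colon epithelium, had 0 UMIs in both. The human markers of other cell types were low: at most 35.7 CPM for macrophages and neutrophils, 12.5 for lymphocytes, 18.8 for red blood cells and 70.5 for endothelium and fibroblasts. CD163, KDR, PDGFRA and COL3A1 were at 0 in both groups. LUM had 17 UMIs in the RNA-rich and 23 in the RNA-poor cells, COL1A1 6 and 10, and ITGAM 5 and 12. Reads were mapped to human transcripts, so that these low values say nothing about cells of the zebrafish host. Wells under 1000 human UMIs, none of which passed as a cell, had 23.4% to 37.5% of their UMIs on mitochondrial genes and 8.13% to 11.7% on ribosomal protein genes. The first share was above and the second below that of both the RNA-rich and the RNA-poor cells of every plate.

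The question of the main comparison was which genes took a different share of the UMIs in cells with much RNA than in cells with little. Cell cycle genes of G2 and M phase, S phase genes and cytosolic chaperones took larger shares in the RNA-rich cells. Many ribosomal protein genes, several mitochondrially encoded genes and a smaller part of the immediate early genes took smaller shares. Of 4284 genes that passed a filter on low counts, 131 were higher in the RNA-rich cells (3.06% of the genes tested) and 74 were lower (1.73%), together 205 or 4.79%, by edgeR's quasi-likelihood test with the plate as a block and Benjamini-Hochberg adjustment at 0.05. The median log2 difference of all genes tested was 0.11, so that the typical gene stood slightly higher in the RNA-rich cells.

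These counts depended on the scaling and on the random thinning. With trimmed mean scaling (TMM), which sets the median difference near 0, 73 genes were higher (1.7%) and 142 lower (3.31%), and all of the 74 lower genes were among those 142. Another random draw of the thinned UMIs called 125 genes higher and 76 lower, of which 55 and 55 were shared with the first draw, and no gene changed direction. DESeq2 called 1 gene higher and 52 lower, and 69 and 136 at an unadjusted p under 0.05, where edgeR had 543 and 237. DESeq2 gave no adjusted p to 3820 of the 4284 genes, among them 131 of the 205 called genes. It also used its own scaling, with a median log2 difference of 0.009, so that its counts and those of edgeR differ in scaling too. The libraries of the first flow cell alone gave 0 calls in either direction with 1 residual degree of freedom, and 321 genes higher and 131 lower at an unadjusted p under 0.05. Because a gene's own UMIs entered the ranking, genes were also tested in cells ranked by other chromosomes. Genes on even-numbered chromosomes and X were tested in cells ranked by the odd-numbered chromosomes, and the reverse. That setting called 191 genes higher and 81 lower, with 125 of the 131 and 64 of the 74 among them. Mitochondrial genes, some of which are among the 74, lay in neither part and could not be called there.

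Genes of G2 and M phase stood highest as a group. These genes encode the machinery that condenses, aligns and separates chromosomes, and their transcripts accumulate late in the cycle. Of 57 genes listed, 34 were tested, 15 were higher in the RNA-rich cells and 0 were lower. All 34 fitted differences were above 0, with a median log2 difference of 0.96 against 0.11 for all genes tested. A gene could pass the filter on low counts through the sums of either group alone. The common direction and the median are therefore partly set by which genes of the list passed. The summed shares given below counted all listed genes, tested or not. The other thinning draw called 12 of them, TMM scaling 13, and the fits that left out 1 plate between 9 and 13. In DESeq2 none of the 15 received an adjusted p, and 13 of the 34 were higher and 0 lower at an unadjusted p under 0.05.

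TOP2A, the topoisomerase that untangles sister chromatids, had 70.2, 35.7, 81.2, 167 and 162 CPM in the RNA-rich cells. It had 21.9, 14.3, 6.25, 30.3 and 96.2 in the RNA-poor cells. Those RNA-poor levels rested on few molecules: before thinning there were 13, 7, 12, 14 and 24 UMIs. Every plate showed more in its RNA-rich cells, although library 11's RNA-poor cells exceeded the RNA-rich cells of the 1 dpi plates. The log2 difference was 1.76 ± 0.36 (SE, edgeR adjusted p = 0.00053), and it was called in each of the 5 fits without a plate.

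MKI67, which coats mitotic chromosomes and is the common marker of cycling cells, had 83.3, 57.1, 31.2, 106 and 181 CPM in the RNA-rich cells. In the RNA-poor cells it had 8.77, 21.4, 12.5, 60.6 and 64.1, below the RNA-rich cells of the same plate each time. These RNA-poor levels also rested on few molecules: before thinning there were 16, 17, 7, 14 and 18 UMIs. The log2 difference was 1.75 ± 0.37 (adjusted p = 0.001), and without library 6 the adjusted p was 0.098. CENPF, a kinetochore protein of late G2, had 118, 92.9, 75, 341 and 388 CPM in the RNA-rich cells and 39.5, 21.4, 50, 75.8 and 147 in the RNA-poor cells. Its levels in RNA-rich cells were far higher in the 4 dpi plates than in the 1 dpi plates. Its log2 difference over all plates was 1.49 ± 0.26 (adjusted p = 2.3e-05).

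CDK1, the kinase that drives entry into mitosis, had 92.1, 42.9, 75, 167 and 131 CPM in the RNA-rich cells and 57, 7.14, 18.8, 45.5 and 96.2 in the RNA-poor cells, with a log2 difference of 1.14 ± 0.31 (adjusted p = 0.013). The motor protein CENPE, which moves chromosomes to the spindle equator, had the largest fitted difference of the list, 1.87 ± 0.52 (adjusted p = 0.015). It rested on low counts, and without library 11 the adjusted p was 0.17. AURKA, a kinase of the spindle poles, stood 1.72 ± 0.42 higher (adjusted p = 0.004, and 0.1 without library 6). UBE2C, which marks cyclins for destruction at the end of mitosis, stood 1.39 ± 0.33 higher (adjusted p = 0.0031). ANLN, a scaffold of the cleavage furrow, stood 1.14 ± 0.25 higher (adjusted p = 0.0012, and 0.081 without library 7). SMC4, a subunit of the condensin that compacts chromosomes, stood 1.01 ± 0.19 higher (adjusted p = 0.00017).

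Not every gene of mitosis was called. CCNB1, the cyclin partner of CDK1, had 43.9, 21.4, 56.2, 152 and 125 CPM in the RNA-rich cells and 30.7, 64.3, 18.8, 37.9 and 57.7 in the RNA-poor cells. It was higher in 4 of the 5 plates and lower in library 7, and its difference of 0.72 ± 0.36 was not called (adjusted p = 0.27). CKS2, a small CDK-binding protein, had the lowest difference of the list, 0.15 ± 0.18 (adjusted p = 0.73).

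The promoters of these genes are known for a shared pair of elements, the cell cycle genes homology region (CHR) and the CCAAT box, which work in tandem a short distance before the start of transcription. RefSeq promoters on GRCh38.p14 (250 bases before to 50 after the start) were available for 12 of the 15 called genes. A CHR, searched as TTTGAA on both strands, was found in 10 of the 12 (83.3%), against 20 of 29 (69%) for the tested genes of the list, 9.33% of the 3431 promoters of genes tested and 15.4% of 27305 promoters in all. In CENPF and KIF20B every CHR found lay after the start. A CCAAT box, searched as CCAAT on both strands, was found in 9 of the 12 (75%). The tested genes of the list had one in 22 of 29 promoters (75.9%), a similar share, and all genes tested in 38.3%. Not every promoter held the pair: ANLN and SMC4 had no CCAAT box, NEK2 no CHR and CENPE neither. The stretches below are from 5 of the called genes whose promoters hold both motifs. They read 5′ to 3′ on the strand of the gene, with the CHR (TTTGAA or TTCAAA) and the CCAAT box (CCAAT or ATTGG) in capitals. The last CHR and the last CCAAT box of MKI67 overlap. Further matches of TOP2A and ECT2 lie outside the stretches shown. A match is a description of the letters and not of a factor bound there.
TOP2A, chr17:40417937-40418064, minus strand, from 168 to 41 bases before the start: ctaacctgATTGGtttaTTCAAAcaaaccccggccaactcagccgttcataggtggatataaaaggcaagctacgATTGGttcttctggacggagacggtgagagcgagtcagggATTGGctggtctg
CDK1, chr10:60778162-60778193, plus strand, from 169 to 138 bases before the start: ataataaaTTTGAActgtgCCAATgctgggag
KIF23, chr15:69414277-69414307, plus strand, from 72 to 42 bases before the start: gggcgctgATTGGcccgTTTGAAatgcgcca
MKI67, chr10:128126435-128126529, minus strand, from 106 to 12 bases before the start: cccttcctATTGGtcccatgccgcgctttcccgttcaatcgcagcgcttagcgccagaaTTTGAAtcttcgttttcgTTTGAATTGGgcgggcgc
ECT2, chr3:172750603-172750680, plus strand, from 123 to 46 bases before the start: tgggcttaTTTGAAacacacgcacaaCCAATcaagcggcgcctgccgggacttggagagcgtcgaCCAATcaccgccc

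KIF23, a motor of the central spindle, was the weakest call among these 5, with a log2 difference of 1.18 ± 0.36 (adjusted p = 0.039), and it was lost in every fit without a plate. ECT2, which activates the contractile ring at cytokinesis, stood 1.05 ± 0.28 higher (adjusted p = 0.011).

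S phase genes, which copy DNA and supply its building blocks, moved the same way. Of 43 listed, 21 were tested, 5 were higher and 0 lower, and all 21 differences were above 0 with a median of 0.65. The limit that the filter on low counts sets on a common direction holds for this list too. The fits without a plate called 2 to 5, the fewest without library 6, and DESeq2 called 0, with no adjusted p for 20 of the 21. DTL, which targets replication licensing factors for destruction, had 127, 50, 93.8, 114 and 37.5 CPM in the RNA-rich cells and 35.1, 14.3, 31.2, 22.7 and 32 in the RNA-poor cells. The gap was narrow in library 11 and wide in the others, and the log2 difference was 1.57 ± 0.36 (adjusted p = 0.002). In the other thinning draw DTL stood 0.93 higher and was not called (adjusted p = 0.126), and without library 6 its adjusted p was 0.099. MCM5, a subunit of the replicative helicase, stood 1.39 ± 0.37 higher (adjusted p = 0.011). The histone chaperone NASP stood 0.97 ± 0.23 higher (adjusted p = 0.0035) and was called in each fit without a plate. Promoters of the called S phase genes held no CHR (0 of 4), and 9.33% of the promoters of genes tested held one. With 4 promoters this count cannot be told from that share.

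The summed shares showed the same pattern by plate. Genes of G2 and M phase took 0.371%, 0.309%, 0.305%, 0.606% and 0.600% of the UMIs of the RNA-rich cells. In the RNA-poor cells they took 0.215%, 0.188%, 0.178%, 0.295% and 0.303%. The share was higher in 5 of 5 plates by 0.203 ± 0.0940 percentage points (SD, n = 5), with an exact two-sided permutation p of 0.0625, the smallest that 5 plates allow, and an adjusted p of 0.075 over the 6 measures tested. The S phase share was higher in 5 of 5 plates by 0.114 ± 0.0377 percentage points (exact permutation p = 0.0625, adjusted p = 0.075). Of all genes tested, 363 (8.47%) were higher in the RNA-rich cells of 5 of 5 plates and 164 (3.83%) lower, and of the G2 and M list 19 and 0. In the middle cells the G2 and M share lay between the outer groups in 4 of the 5 plates, and so did the S phase share.

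Single cells with a strong G2 and M signal were found in both groups. Cells with at least 0.5% of their thinned UMIs (20 of 4000) on this list made up 22.8%, 14.3%, 15%, 45.5% and 40% of the RNA-rich cells. They made up 7.02%, 5.71%, 5%, 15.2% and 15.4% of the RNA-poor cells. Every plate had the larger share among its RNA-rich cells, and both 4 dpi plates had larger shares than the 1 dpi plates in either group.

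**Figure D2:**
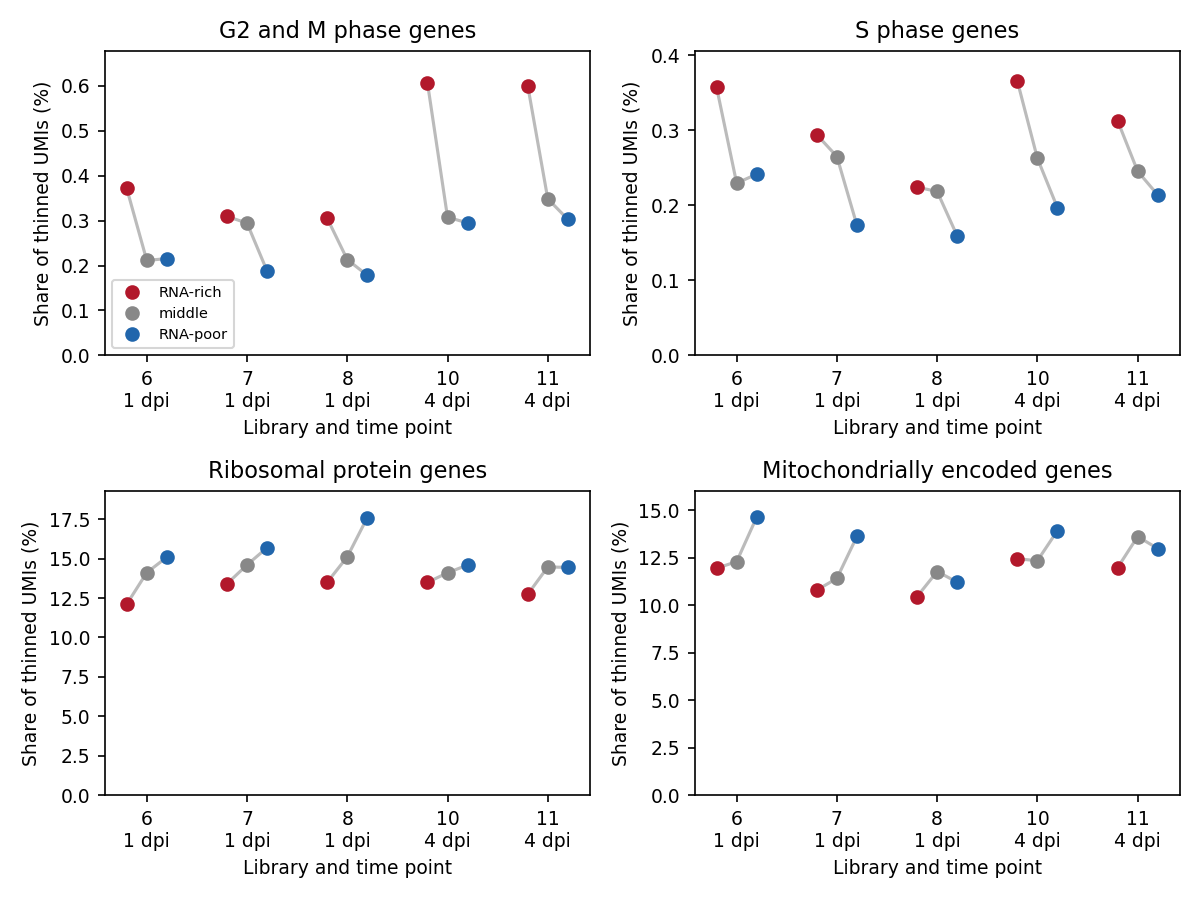
Share of the thinned UMIs (percent) on genes of G2 and M phase, S phase genes, ribosomal protein genes and mitochondrially encoded genes in each library, for RNA-rich (red), middle (grey) and RNA-poor (blue) cells. The shares of G2 and M phase and S phase genes were higher and the other shares lower in the RNA-rich than in the RNA-poor cells of all 5 libraries.

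Genes of growth and protein folding were higher in smaller number. CCND1, the cyclin that carries growth signals into G1, had 364, 321, 356, 311 and 412 CPM in the RNA-rich cells and 110, 136, 188, 174 and 237 in the RNA-poor cells. The groups did not overlap, and the log2 difference was 1.11 ± 0.17 (adjusted p = 2.5e-06), with 0.87 in the other thinning draw, also called.

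Of 21 heat shock and chaperone genes tested, 7 were higher and 0 lower, with a median log2 difference of 0.39. HSP90AA1, a cytosolic HSP90, had 2083, 2214, 2188, 1856 and 2325 CPM in the RNA-rich cells and 1452, 1443, 1956, 1220 and 1147 in the RNA-poor cells. Its groups overlapped only through the RNA-poor cells of library 8, which stood above the RNA-rich cells of library 10. The difference was 0.59 ± 0.10 (adjusted p = 6.3e-06), and DESeq2 called it too (adjusted p = 0.0056). The others called were HSPA8, HSPA4, DNAJB1 and the chaperonin subunits TCP1, CCT4 and CCT5, which fold actin and tubulin, with differences of 0.39 to 0.78. TMM scaling called 3 of the list and the fits without a plate 2 to 4.

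Of 23 genes tested of the list of MYC and its targets, 4 were higher and 0 lower, with a median of 0.21. At 1 dpi 2 of the list were higher and 1 lower. TMM scaling called 3 higher and 1 lower over all plates, and the other thinning draw 4 and 1. SRM, the spermidine synthase, had 307, 243, 219, 204.5 and 344 CPM in the RNA-rich cells and 136, 157, 206, 167 and 89.7 in the RNA-poor cells. It was higher in all 5 plates, least so in library 8, by 0.85 ± 0.19 (adjusted p = 0.002, and 0.1 without library 11). ODC1, which makes the polyamine putrescine, stood 0.51 higher and the mitochondrial chaperonin HSPD1 0.49 higher. MYC itself had 298, 293, 338, 227 and 175 CPM in the RNA-rich cells and 417, 486, 562, 205 and 250 in the RNA-poor cells, and its difference of -0.46 ± 0.16 was not called (adjusted p = 0.075).

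Of 42 ribosome biogenesis genes, which process ribosomal RNA and assemble subunits, 3 were higher (MRTO4, DDX56 and NOP56) and 0 lower, with a median of 0.37; TMM scaling called 0 of them. Of 29 proteasome genes 2 were higher, PSMC3 by 0.84 and PSMD1 by 0.71, with a median of 0.23. Of 27 genes of actin, tubulin and the cytoskeleton 4 were higher, among them TUBB (0.53 ± 0.15, adjusted p = 0.019), and TMSB10, which binds actin monomers, was lower by 0.32. KRT18, a keratin of simple epithelia, stood 0.53 ± 0.11 higher (adjusted p = 0.0011). Of 7 interferon-stimulated genes 1 was lower, the membrane protein IFITM2, with a difference of -0.62 (adjusted p = 0.027). This call was lost in the other thinning draw (-0.38, adjusted p = 0.25), without library 6, 8 or 11, with no plate block and with a correction for molecules that share a UMI, and DESeq2 gave it no adjusted p. Of 36 translation factors 1 was lower (PABPC1, by 0.33) and 0 were higher. Among all genes tested, 3.06% were higher and 1.73% lower, and the small counts of these lists were not tested against those shares. The genes of glycolysis and hypoxia (16), cholesterol and fatty acid synthesis (17), p53 and apoptosis (11), histones and HMG proteins (16), and RNA polymerase II and splicing (43) had 0 calls in edgeR over all plates. Among common reference genes, GAPDH differed by 0.17, ACTB by 0.24 and EEF1A1 by -0.08, none of which was called (adjusted p = 0.19, 0.13 and 0.6).

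Ribosomal proteins took a smaller share of the RNA-rich cells. Their genes are among the most abundant transcripts of a cell, and they have many near-identical pseudogene copies, so that the counts of single genes are uncertain. Of 46 large subunit genes tested 15 were lower and 1 was higher, with a median log2 difference of -0.19, and of 30 small subunit genes 12 were lower and 0 higher, with a median of -0.20. The other thinning draw called 15 and 11 lower, TMM scaling 21 and 17, and the fits without a plate 10 to 15 and 9 to 12. DESeq2 called 15 of the 16 called large subunit genes and all 12 called small subunit genes.

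RPL37 had 1719, 1900, 1819, 1606 and 1488 CPM in the RNA-rich cells and 2728, 2536, 3050, 2227 and 2128 in the RNA-poor cells. The groups did not overlap, and the log2 difference was -0.57 ± 0.09 (adjusted p = 4.8e-06). RPS29 had 1311, 1743, 1938, 1697 and 1644 in the RNA-rich cells and 2382, 2871, 2650, 2242 and 2019 in the RNA-poor cells, again without overlap, for a difference of -0.55 ± 0.09 (adjusted p = 1.1e-05). RPS7 differed by -0.50 ± 0.08 (adjusted p = 5.1e-06) and RPL41, the smallest ribosomal protein, by -0.51 ± 0.08 (adjusted p = 2.5e-06), each lower in 5 of 5 plates. RPL3, a protein near the peptidyl transferase centre, went the other way. It had 1434, 1307, 1900, 1432 and 1838 CPM in the RNA-rich cells and 1083, 1464, 1212, 1318 and 1083 in the RNA-poor cells, and was lower in library 7. Its difference of 0.36 ± 0.10 (adjusted p = 0.02) was lost under TMM scaling (adjusted p = 0.16) and without library 11 (adjusted p = 0.22).

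The summed share of ribosomal protein genes was 12.1%, 13.4%, 13.5%, 13.5% and 12.7% in the RNA-rich cells and 15.1%, 15.7%, 17.6%, 14.6% and 14.4% in the RNA-poor cells. It was lower in the RNA-rich cells of 5 of 5 plates by a mean of 2.43 ± 1.16 percentage points (SD, n = 5, exact permutation p = 0.0625, adjusted p = 0.075). The groups did not overlap over the 5 plates, and the middle cells lay between in 4 plates.

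Mitochondrially encoded genes were lower in some of their members. They encode core subunits of the respiratory chain and the mitochondrial ribosomal RNAs. Their UMIs entered both the cell filter and the RNA content, so that a cell rich in them was ranked higher and not lower. Of 14 tested, 4 were lower in the RNA-rich cells and 0 higher, with a median of -0.13. MT-ND3, a subunit of complex I, had 5127, 5279, 4156, 6076 and 4975 CPM in the RNA-rich cells and 8816, 7621, 5481, 7833 and 6718 in the RNA-poor cells, lower in every plate. Its difference was -0.50 ± 0.07 (adjusted p = 1.2e-06). MT-ND1, also of complex I, differed by -0.41 ± 0.06 (adjusted p = 2.3e-06), MT-CO2 by -0.33 and MT-ND4 by -0.27. Other transcripts of the same genome were not called: MT-CO1 had 8851, 5157, 6581, 6924 and 8262 CPM in the RNA-rich cells and 5561, 6850, 4381, 7189 and 6391 in the RNA-poor cells, higher in 3 plates and lower in 2 (0.24 ± 0.08, adjusted p = 0.074). The ribosomal RNA MT-RNR2 differed by -0.08 ± 0.06 (adjusted p = 0.56).

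The mitochondrial share was 11.9%, 10.8%, 10.5%, 12.5% and 11.98% in the RNA-rich cells and 14.6%, 13.6%, 11.2%, 13.9% and 12.99% in the RNA-poor cells, lower in 5 of 5 plates (mean difference -1.75 ± 0.955 percentage points, SD, n = 5, exact permutation p = 0.0625, adjusted p = 0.075). It was -3.26 with mitochondrial genes left out of the ranking, -3.17 with cells ranked by the other chromosomes, and -0.736 in cells under 15% mitochondrial UMIs. Part of this difference moved with the counting of UMIs. The most abundant genes reached 2881 UMIs in one well, and molecules that by chance carry the same UMI are counted once, which lowers abundant genes more in cells with many UMIs. The sources used here do not give the length of the UMI. Under a correction for such collisions that assumes 6 bases, added after the data had been seen, the difference in mitochondrial share was -1.99, -2.03, 0.05, -0.07 and 0.03 percentage points by library (mean -0.80, exact permutation p = 0.3125). With that correction MT-ND3 (-0.45, adjusted p = 5.8e-05) and MT-ND1 (-0.30, adjusted p = 0.002) were still lower. MT-ND4 was at -0.08 (adjusted p = 0.52), MT-CO2 had an adjusted p of 0.057, and MT-CO1 stood 0.36 higher (adjusted p = 0.0072). Of the 14 mitochondrially encoded genes tested, 2 were thus called lower and 2 higher after the correction, with a median of -0.03. The ribosomal protein share was still lower in 5 of 5 plates, with 14 large and 12 small subunit genes called lower.

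**Figure D3:**
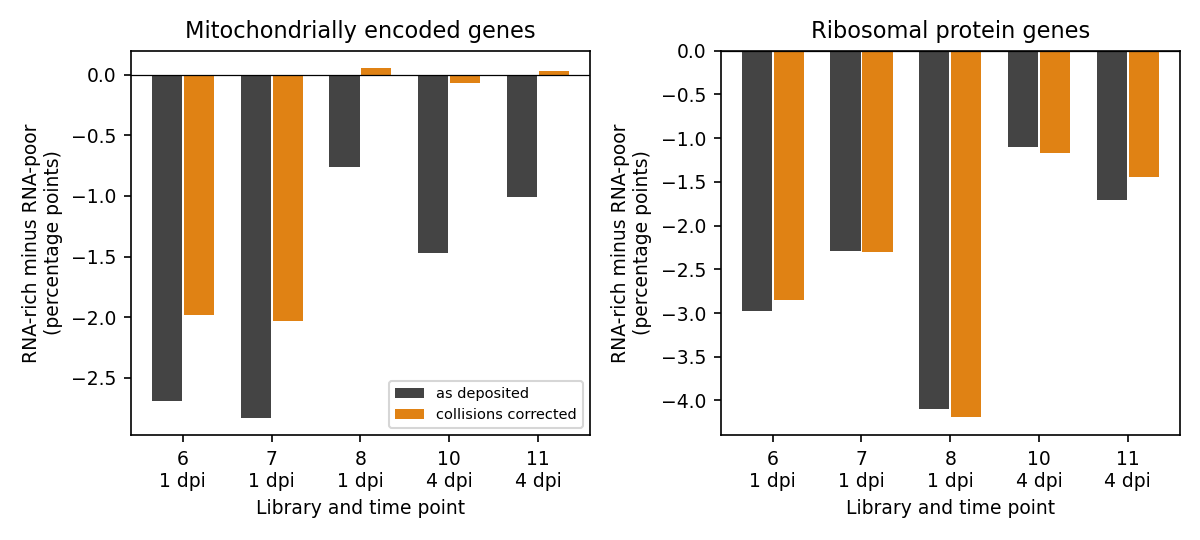
Difference in share between RNA-rich and RNA-poor cells (percentage points) for mitochondrially encoded and ribosomal protein genes in each library, as deposited and with UMI collisions corrected for an assumed length of 6 bases. After the correction the mitochondrial difference is near 0 in libraries 8, 10 and 11, while the ribosomal protein difference stays below 0 in all 5.

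Of 72 nuclear genes for subunits of oxidative phosphorylation, 4 were lower and 1 was higher, with a median of -0.07. Among all genes tested, 1.73% were lower and 3.06% higher. The lower ones were COX6A1, COX7B and COX7C of cytochrome c oxidase and NDUFA4, by 0.41 to 0.56. The higher one was NDUFV1, of complex I, by 0.97. TMM scaling and the correction of UMI collisions each called 0 of the list higher. COX7B had 404, 514, 469, 454.5 and 419 CPM in the RNA-rich cells and 636, 729, 800, 530.3 and 647 in the RNA-poor cells, without overlap (-0.56 ± 0.13, adjusted p = 0.0023).

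Immediate early genes, which respond to growth factors and stress within minutes and include their own feedback inhibitors, were lower in part. Of 30 tested, 8 were lower and 1 was higher (KLF10, by 0.48), with a median of -0.26. Among all genes tested, 1.73% were lower and 3.06% higher. The other thinning draw, TMM scaling and the correction of UMI collisions each called 0 of the list higher. The listed genes together took 0.703%, 0.972%, 0.724%, 0.528% and 0.6725% of the UMIs in the RNA-rich cells and 0.674%, 1.11%, 0.921%, 0.6515% and 0.799% in the RNA-poor cells, so that in library 6 their sum stood slightly higher in the RNA-rich cells. JUNB, a subunit of the AP-1 factor, had 232, 329, 325, 121 and 162 CPM in the RNA-rich cells and 443, 786, 369, 159 and 314 in the RNA-poor cells. It was lower in all 5 plates, most so in library 7. Its difference of -0.78 ± 0.17 was called (adjusted p = 0.0011), and without library 7 the adjusted p was 0.052. ZFP36, which destabilises cytokine transcripts, had 132, 179, 138, 106 and 81.2 in the RNA-rich cells and 136, 471, 344, 174 and 167 in the RNA-poor cells (-0.92 ± 0.21, adjusted p = 0.0017, and 0.066 without library 7). JUN, the partner of FOS in AP-1, was lower in all 5 plates by 0.63 (adjusted p = 0.006).

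The orphan nuclear receptor NR4A1 was not uniform over the plates: it had 96.5, 92.9, 87.5, 37.9 and 12.5 CPM in the RNA-rich cells and 52.6, 400, 81.2, 129 and 89.7 in the RNA-poor cells, lower in 3 plates and higher in 2. Its difference of -1.24 ± 0.30 (adjusted p = 0.004) had an adjusted p of 0.24 without library 7. The phosphatases DUSP1 and DUSP2 and the antiproliferative gene BTG2 were lower by 0.83 to 0.87, and MAFF by 0.73. Without library 7 only 2 of the list were called lower, and with cells ranked by human UMIs alone 2 were lower and 3 higher. Over all fits without a plate, 2 to 7 were called lower.

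Genes of stress in the secretory pathway were mostly not called. Of 17 endoplasmic reticulum chaperones and unfolded protein response genes 2 were lower, where 1.73% of all genes tested were lower. PDIA3, a disulfide isomerase of glycoproteins, had 21.9, 35.7, 62.5, 22.7 and 37.5 CPM in the RNA-rich cells and 57, 85.7, 131, 75.8 and 109 in the RNA-poor cells, lower in every plate (-1.35 ± 0.32, adjusted p = 0.0039, and -0.96 with an adjusted p of 0.05 in the other draw). HYOU1 was lower by 0.82 (adjusted p = 0.024), and the other thinning draw gave -0.45 (adjusted p = 0.29). Of 20 genes of the ATF4 and amino acid response, 2 transporters were lower, SLC7A5 by 0.92 (adjusted p = 0.0033, and 0.059 without library 6) and SLC7A11 by 0.71.

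The largest falls among genes of at least 100 CPM that were lower in all 5 plates were those of RNF103, ZFP36, LINC01004, DUSP2, HYOU1, JUNB, MAFF and SERF2, from -0.99 to -0.73. RNF103, a ubiquitin ligase, and SERF2 stood at -0.55 and -0.44 in the other thinning draw and were not called there. Among the largest rises by the same rule were those of DHRS2, CENPF, ZNF146, ANLN, CCND1, BIRC6 and SMC4, from 1.79 to 1.01. DHRS2, a reductase, had 83.3, 114, 62.5, 591 and 300 CPM in the RNA-rich cells and 17.5, 28.6, 25, 182 and 96.2 in the RNA-poor cells (1.79 ± 0.28, adjusted p = 3.6e-06). A single cell gave 46.4% to 68.7% of this level in the RNA-rich group of each plate and 28.1% to 89.3% in the RNA-poor group, so that DHRS2 rested on few cells. BIRC6, an inhibitor of apoptosis, stood 1.04 higher (adjusted p = 0.0026) but 0.57 (adjusted p = 0.197) in the other draw.

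**Figure D4:**
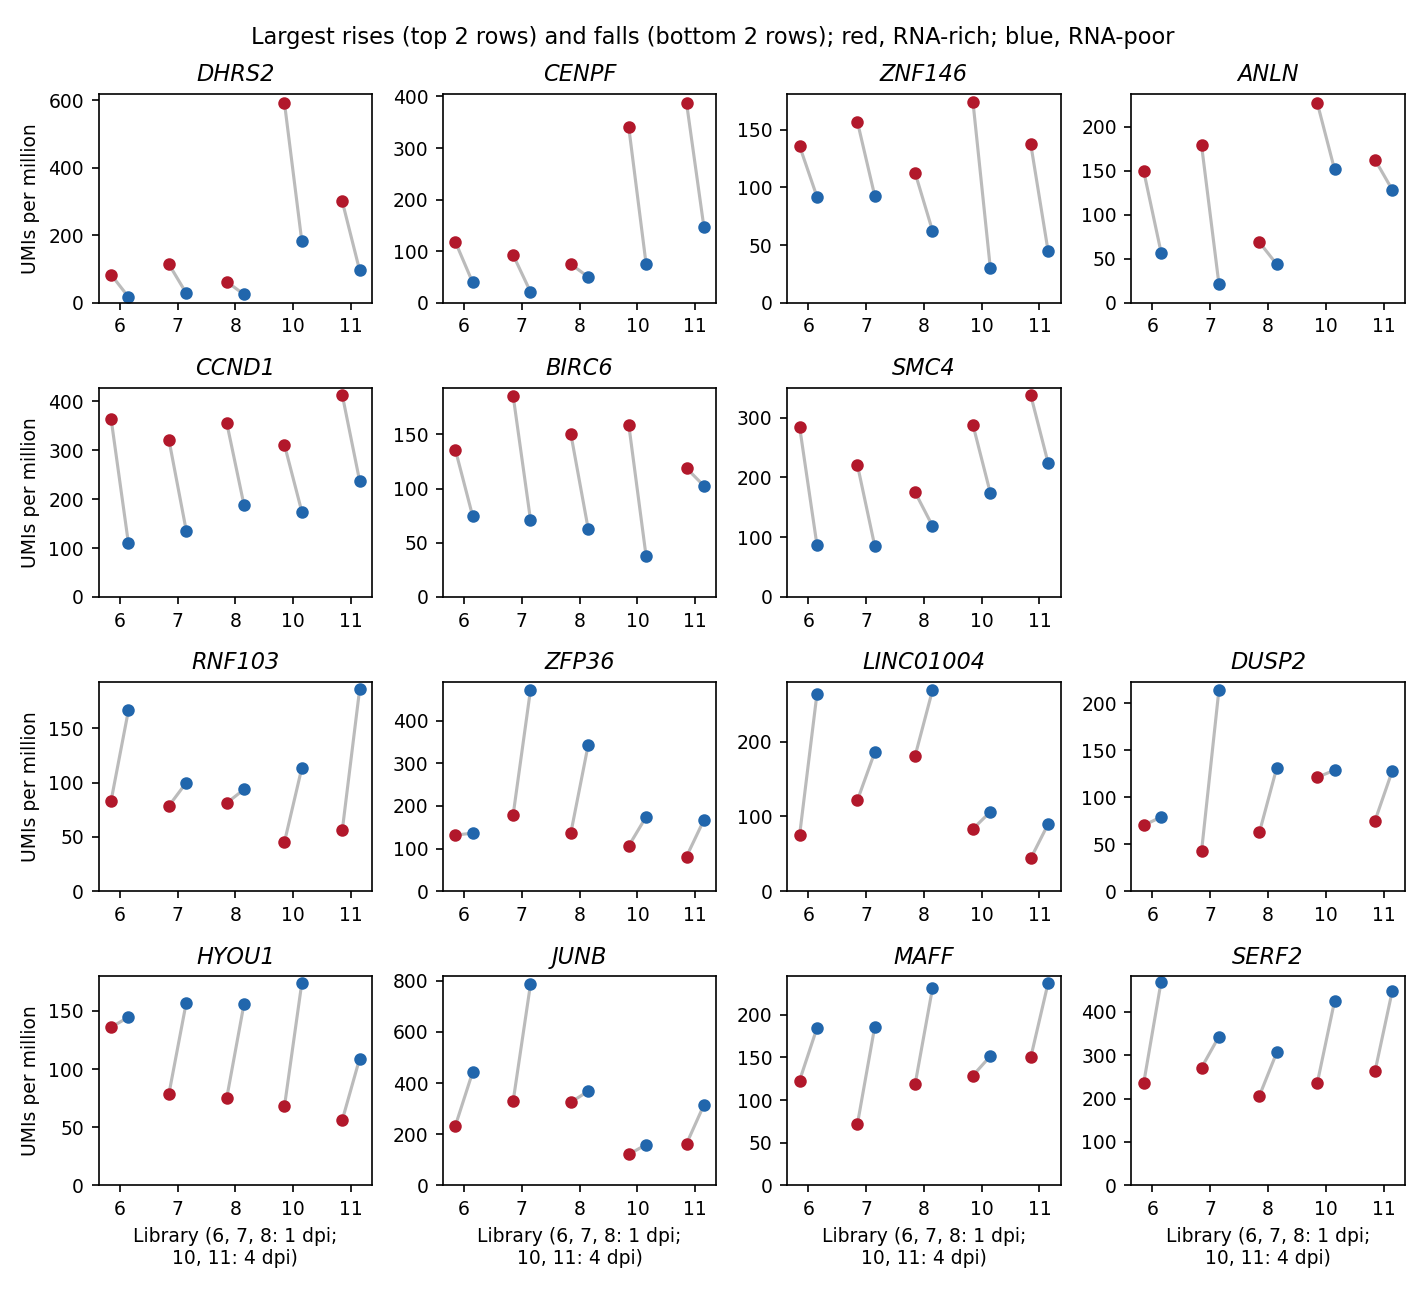
CPM in each library of 7 genes among the largest rises and of the 8 genes with the largest fall (called, same direction in 5 of 5 libraries, mean of at least 100 CPM), in RNA-rich (red) and RNA-poor (blue) cells. Genes of cell division (CENPF, ANLN, SMC4) and CCND1 are among the rises, and immediate early genes (ZFP36, DUSP2, JUNB, MAFF) among the falls.

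Long non-coding RNAs of the nucleus went both ways. Of 16 tested, 1 was higher and 4 were lower, with a median of -0.31. MALAT1, an abundant RNA of nuclear speckles, had 2009, 2393, 2388, 3947 and 2438 CPM in the RNA-rich cells and 1561, 1271, 800, 1629 and 3545 in the RNA-poor cells. It was higher in 4 plates and lower in library 11, by 0.68 ± 0.11 overall (adjusted p = 1.3e-05). NEAT1, which builds paraspeckles, differed by -0.66 (adjusted p = 0.0037, and 0.15 without library 11). ZFAS1 and SNHG5, which host small nucleolar RNAs, were lower in 5 of 5 plates. ZFAS1 had 1693, 2079, 1950, 1947 and 1625 CPM in the RNA-rich cells and 2680, 2436, 2944, 2871 and 2641 in the RNA-poor cells, without overlap (-0.55 ± 0.09, adjusted p = 5.3e-06). The summed share of the list differed by a mean of -0.123 ± 0.219 percentage points (SD, n = 5), less than its spread between plates (exact permutation p = 0.375, adjusted p = 0.375).

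KCNQ1OT1, an antisense RNA of the imprinted KCNQ1 locus, had 250, 314, 469, 273 and 262 CPM in the RNA-rich cells and 320, 329, 444, 477 and 1179 in the RNA-poor cells. A single cell gave 30.61% of it in the RNA-poor cells of library 11. The excess in RNA-poor cells lay mostly in library 11, without which the overall difference of -0.71 was not called (adjusted p = 0.41). The sources used here do not state whether counting used the strand, so that its reads cannot be told from those of overlapping genes.

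Chemokines were rare and uneven. Of 4 tested, 2 were lower in the RNA-rich cells. CCL20, which attracts immature dendritic cells and lymphocytes, had 48.2, 14.3, 37.5, 15.2 and 6.25 CPM in the RNA-rich cells and 39.5, 143, 350, 68.2 and 256 in the RNA-poor cells (-2.83 ± 0.34, adjusted p = 1.9e-09). CCL20 passed the filter on low counts only through its RNA-poor sums, so that the group where it was high chose it for the test. Its p-value and its place in the count of lower chemokines are limited by that. A single cell gave 53.1% to 81.1% of CCL20 in the RNA-poor group of each plate, and in library 6 the RNA-rich cells had slightly more. CXCL1, which attracts neutrophils and is among the genes named by the study, differed by -1.46 (adjusted p = 0.006, and 0.25 without library 8). It stood higher in the RNA-rich cells of libraries 6 and 10, and a single cell gave 55.7% to 100% of it in the RNA-poor group of each plate. Of the other genes named by the study that could be tested, none was called over all plates. NOTUM, a secreted Wnt inhibitor and Wnt target, had 408, 214, 300, 288 and 300 CPM in the RNA-rich cells and 333, 364, 275, 848 and 436 in the RNA-poor cells. Its difference was -0.45 over all plates (adjusted p = 0.074) and -1.06 at 4 dpi (adjusted p = 0.0068). The Notch target HES1 (-0.19) and the Wnt target AXIN2 (0.27) were not called, and 0 of 6 Notch targets and 0 of 16 Wnt targets were called over all plates.

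A smaller share did not mean fewer molecules per spike-in UMI. Because the rule used this ratio, it is given as a description only. Per ERCC UMI the RNA-rich cells had 3.37 to 4.82 times the MT-ND3 of the RNA-poor cells of the same plate, 3.39 to 4.32 times the RPL37 and 3.12 to 4.29 times the RPS29. EEF1A1, a translation factor that was not called, had 3.58 to 6.01 times as much, CCND1 6.07 to 13.9 times and TOP2A 14.5 to 35.3 times. Among the named genes with a value in every plate, CCL20, CXCL1, CXCL3 and NR4A1 had a ratio below 1 in at least 1 plate, and all the others were above 1 in every plate.

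At equal depth the RNA-rich cells showed more genes. They had a mean of 2073, 2022, 2060, 1954 and 2016 genes in 4000 UMIs, against 1856, 1877, 1886, 1916 and 1926 in the RNA-poor cells, higher in 5 of 5 plates by 133 ± 70.3 genes (SD, n = 5, exact permutation p = 0.0625, adjusted p = 0.075). The called genes also differed in transcript length. The median length of the genes tested was 3213.5 bases, that of the higher genes 3724.5 and that of the lower genes 1234, or 2204.5 without ribosomal protein and mitochondrial genes. Of the higher genes 19 were in the shortest 25% and 43 in the longest, and of the lower genes 45 and 5. The part of transcript length in the differences was not tested.

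The time points were compared last, with 3 plates against 2. The RNA content of all cells that passed had plate medians of 105, 128.6 and 55.6 at 1 dpi and 101.9 and 44.2 at 4 dpi. The plates of the other flow cell (libraries 8 and 11) were the 2 lowest, and the log2 ratio of 4 dpi over 1 dpi was -0.44 (exact permutation p = 0.5, smallest possible 0.1), -0.19 within the first flow cell and -0.33 within the other. Without library 11 it was 0.16.

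At 1 dpi 49 genes were higher in the RNA-rich cells (1.14%) and 47 lower (1.1%). At 4 dpi 23 were higher (0.537%) and 28 lower (0.654%). Of the G2 and M list, 8 were higher at 1 dpi and 3 at 4 dpi, with medians of 0.95 and 1.01, so that the smaller count at 4 dpi went with a difference of similar size. Of the ribosomal protein genes, 25 were lower at 1 dpi and 3 at 4 dpi, with medians of -0.25 and -0.10 for the large and -0.23 and -0.15 for the small subunit. The difference in G2 and M share was 0.135 ± 0.0187 percentage points at 1 dpi and 0.304 ± 0.00985 at 4 dpi, which did not overlap (exact permutation p = 0.1, the smallest possible, adjusted p = 0.3). As a ratio of the shares it was 1.65 to 1.73 at 1 dpi and 1.98 to 2.06 at 4 dpi. The difference in ribosomal protein share was -3.12 at 1 dpi and -1.40 at 4 dpi (exact permutation p = 0.2, adjusted p = 0.4).

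The log2 difference, RNA-rich minus RNA-poor, was also tested directly between the time points. It was higher at 4 dpi than at 1 dpi for 0 genes (0%) and lower for 2 (0.0467%), with 110 and 164 at an unadjusted p under 0.05. DESeq2 called 0 in either direction. The 2 genes were KCNQ1OT1, with an interaction of -1.49 ± 0.31 (adjusted p = 0.011), and LOC100131257, with -2.04 ± 0.40 (adjusted p = 0.0068). For both, the RNA-poor cells stood above the RNA-rich cells in both plates of 4 dpi. LOC100131257 had 123, 214, 156, 121 and 150 CPM in the RNA-rich cells and 158, 107, 125, 250 and 705 in the RNA-poor cells. In the RNA-poor cells of library 11 a single cell gave 34.55% of LOC100131257 and 30.61% of KCNQ1OT1. For both genes the highest value was that of the RNA-poor cells of library 11, without which the interaction was -0.69 (adjusted p = 0.716) and -1.28 (adjusted p = 0.601).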

How the data were processed

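Single-cell SORT-seq libraries of SW480 cells from zebrafish xenografts were analysed, 3 of 1 dpi and 2 of 4 dpi. The authors took well barcode and UMI from read 1, mapped read 2 with BWA and deposited raw counts of distinct UMIs per gene and well, ERCC rows included and with no filter on wells. The submitters' processing notes name hg38 and BWA; no source used here states their versions or that of the transcriptome, and genes are named by symbol. As in the study's code, genes listed in all libraries and seen in 10 wells (15077) entered the filter of wells, ERCC rows counting as genes. The cells, gene lists and named genes were chosen with earlier results of these data known.

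Cells were thinned without replacement to 4000 UMIs, summed per plate and group (10 sums), and tested with edgeR 4.0.16 in R 4.3.3 (quasi-likelihood, two-sided, plate as a block, a group effect per time point, 3 residual degrees of freedom, library-size scaling, filterByExpr, Benjamini-Hochberg). A plate is the replicate, and the block pairs both groups of cells of the same plate. Named genes are the 8 largest rises and falls that were called, had the same direction in 5 of 5 plates and a mean of at least 100 CPM, the highest and lowest gene of each list, genes that the study names, genes called in the interaction, and MALAT1, NEAT1, MKI67, TOP2A, CCNB1, MYC, GAPDH, ACTB, EEF1A1, MT-CO1 and MT-RNR2. One gene that this rule names is not reported here. Other called members of the lists were named after their values were seen. Shares were compared by exact permutation (Python 3.11.15, scipy 1.17.1). Transcript lengths are those of canonical GENCODE transcripts, found for 95.1% of the genes tested. No doublet caller was run.

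Tested on simulated sums of 4284 genes in the comparison over all plates, the test recovered 72.4% of genes changed by 1 on the log2 scale and 93.8% of those changed by 1.5, and 3.57% of its calls were of unchanged genes. Alternatives were another thinning draw, 2000 UMIs or no thinning, RNA content without mitochondrial genes or from human UMIs alone, groups of 50% of the cells each, other cell filters, TMM, no filter on low counts, no block, DESeq2 1.42.0, 1 flow cell, ranking by the other chromosomes and leaving out each plate. Added after seeing the data were the cell filter without ERCC rows, leaving out wells low in ERCC, the second flow cell alone with 1 group effect, and the correction of UMI collisions.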

Additional observations from a re-analysis of the deposited data

Results flagged for a closer look

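The log2 difference, RNA-rich minus RNA-poor, changed with time for 2 genes by the interaction test. At 4 dpi minus 1 dpi it was -1.49 for KCNQ1OT1 and -2.04 for LOC100131257, with the RNA-poor cells above the RNA-rich cells in both plates of 4 dpi. Both rested on the RNA-poor cells of library 11, in which they had 1179 and 705 CPM. A single cell gave 30.61% and 34.55% of these 2 levels. Without library 11 the interaction was -0.69 and -1.28 and was not called (edgeR adjusted p = 0.716 and 0.601), and without library 7 the adjusted p was 0.367 for both.

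In a further 8 of the named genes, 1 plate lay far from the other 4 in the log2 ratio of RNA-rich over RNA-poor cells (10 CPM added to both), beyond the 95% limit of Dixon's test. Chance flags about 1 in 20 such groups, and 158 were looked at. The far plate was library 11 for HES5 (-0.71), library 6 for PABPC1 (-0.65), and library 7 for P4HB (0.84) and RPS21 (-0.03). It was library 10 for HOTAIRM1 (-2.0), MRTO4 (-0.5), TMSB10 (0.21) and RPL23A (-0.02). RPS21 and RPL23A, which were called lower over all plates, were thus close to equal in the plate named.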

How the results depend on the processing

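Counts of genes are given as higher and lower in the RNA-rich cells. Over all plates (131 and 74) they were 20 and 33 with cells thinned to 2000 UMIs, 537 and 192 without thinning, 206 higher without mitochondrial genes in the RNA content, 265 and 114 with cells ranked by human UMIs alone, 79 higher without the richest 5% of wells, 68 and 46 with over 3000 genes, 83 higher under 15% mitochondrial UMIs, 73 and 142 with TMM and 85 higher with no filter on low counts. Without the plate as a block 83 were higher. The first flow cell alone gave 0 and 0 (321 and 131 at an unadjusted p under 0.05, 1 residual degree of freedom), and DESeq2 1 higher. At 1 dpi (49 and 47) the counts were 2 and 11 at 2000 UMIs, 304 and 86 without thinning, 77 higher without mitochondrial genes, 141 and 91 by human UMIs, 32 higher without the richest wells, 28 and 16 over 3000 genes, 20 and 21 under 15%, 97 lower with TMM, 31 higher with no filter, 27 and 16 with no block, 0 and 0 in the first flow cell (300 and 116 unadjusted), and 0 higher in DESeq2 (38 unadjusted). At 4 dpi (23 and 28) they were 1 and 2 at 2000 UMIs, 100 and 71 without thinning, 10 higher without the richest wells, 11 and 9 over 3000 genes, 9 and 7 under 15%, 15 higher with collisions corrected, 10 and 10 with no block, 0 and 0 in the first flow cell (171 and 93 unadjusted), and 1 and 3 in DESeq2. The cause of these moves was not tested, other than the fewer UMIs, cells or plates of some settings.

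Genes whose difference, RNA-rich minus RNA-poor, was higher at 4 dpi (0) numbered 1 without thinning, without mitochondrial genes, under 15% or ranked by the other chromosomes, and 2 by human UMIs or with groups of 50%. Those whose difference was lower (2) numbered 5 without thinning, 4 without mitochondrial genes or by human UMIs, 9 with groups of 50%, 6 ranked by the other chromosomes, 1 over 3000 genes or under 15%, and 0 at 2000 UMIs (66 at an unadjusted p under 0.05 by edgeR), without the richest wells or wells low in ERCC, with collisions corrected, with no block, in the first flow cell and in DESeq2 (16 unadjusted). The mitochondrial share difference (-1.75 percentage points) was -3.26 without mitochondrial genes in the ranking, -3.17 ranked by the other chromosomes and -0.736 under 15%. The S phase difference (0.114) was 0.0732 with groups of 50%, the ribosomal protein difference (-2.43) was -3.88 by human UMIs, and that in genes per cell (133) was 3410 without thinning. The log2 ratio of RNA content by time turned to 0.16 without library 11.

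Leaving out 1 plate at a time gave 55 to 115 higher and 49 to 83 lower over all plates, 5 to 70 and 14 to 49 at 1 dpi, 7 to 28 and 4 to 31 at 4 dpi, 0 to 6 higher and 0 to 7 lower in the interaction. The shares ranged from -2 to -1.49 (mitochondrial), 0.1 to 0.126 (S phase), 0.175 to 0.223 (G2 and M), -2.77 to -2.02 (ribosomal protein) and -0.175 to -0.0341 (nuclear long non-coding), genes per cell from 112 to 157, and RNA content by time from -1.04 to 0.16. Of the single genes named, 1730 values kept their direction and side of the threshold, 317 lost and 66 gained the call, 57 values of 19 genes changed direction without being called in either fit, and 0 called genes turned. With 4000 UMIs per cell, a gene of 100 CPM has less than 1 UMI per cell, which limits the differences that can be detected in rarer genes. In the second flow cell alone a group effect per time point left no residual degrees of freedom, and time points could not be fitted apart. With 1 group effect over both, added after the data had been seen, 18 genes were higher and 48 lower.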
